A study of Oryza sativa with 4 samples.

Results

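RING-type zinc finger proteins were examined here as 117 of the 10455 rice genes in a table of ribosome profiling scores. A gene was taken as a member when the table's description of at least 1 of its transcripts named a RING-type, RING-H2 or RING finger, or the domain entry that begins with RING, and its scores were averaged over all its transcripts. The plants were wild-type rice (Oryza sativa), 2 weeks old and grown in a greenhouse. The potted plants were turned upside down and their shoots were held for 10 min in a water bath, at 22 °C for the control group and at 42 °C for the heat group, so both groups were immersed. Each library came from 10 shoots, and 2 footprint libraries were made per temperature, called biological replicates by the submitters. The study's stated aim was to compare translational efficiency at both temperatures.

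Ribosome profiling sequences the short pieces of mRNA that ribosomes shield from a nuclease, so its reads count ribosomes on each message. Translational efficiency relates those footprints to the amount of the mRNA. The table gives 1 score per transcript and temperature under a header that names the temperature alone. It is read here as that efficiency because of that aim. For the formula, nothing is given in the sources used here, and a log step cannot be told from the values. The samples listed are the footprint libraries alone, so the source of any mRNA amount in the score cannot be told. A score can differ through footprints or through RNA, and these cannot be told apart. No value per library is given, so no score has a spread, no difference has a test or p-value, and the depth behind a score is unknown. Differences below are ratios of 2 pooled scores, and "2-fold" marks a size, not a significance. Scores do not measure how many cells of a type are present. Genes described as chlorophyll a/b-binding proteins (13) and Rubisco small subunits (5), of green tissue, are in the table and above 0 at 1 or both temperatures, but so are 9994 of all 10455 genes and the 30 lipid transfer proteins and 23 of 25 cyclin and PCNA genes, so this does not check the tissue.

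A RING finger is a fold held together by zinc ions. In most RING proteins it binds a ubiquitin-conjugating enzyme (E2) and brings it to a substrate, so that ubiquitin passes to that protein; such RING proteins are ubiquitin ligases (E3). Chains of ubiquitin commonly send the substrate to the proteasome, and plants use large families of these ligases in hormone, light, defence and stress signalling. The descriptions do not settle that every member is such a protein. For 81 of the 117 genes the words that matched name only the RING/FYVE/PHD domain entry, which also covers FYVE fingers, known for binding a phosphoinositide of endosomal membranes, and PHD fingers, known for binding histone tails. The other 36 genes have a description that names RING by itself, and 1 gene, Os06g0154900, is described outright as a ubiquitin ligase. In 20 of the 117 genes a transcript has a description without the words that define members, such as a hypothetical gene or another named protein. Words for FYVE, nucleic acid binding or RNA-binding proteins were looked for among these, and 3 genes had them. Os07g0618600 has a transcript described as a FYVE zinc finger protein, Os01g0887700 as a nucleic acid binding protein and Os04g0679800 as an RNA-binding protein.

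Of the 117 genes, 102 had scores above 0 at both temperatures. Another 4 were listed at 0 at 22 °C alone, 6 at 42 °C alone and 5 at both. Of all 10455 genes, 2.24% were listed at 0 at 22 °C alone, 4.59% at 42 °C alone and 4.41% at both. RING-type genes had low scores. Over the 112 members above 0 at 1 or both temperatures the median score was 0.0608 at 22 °C and 0.0575 at 42 °C, against 0.0869 and 0.0803 over the 9994 such genes of the table. The 90th percentile of the members' scores was 0.308 at 22 °C and 0.356 at 42 °C, against 0.434 and 0.508. At 22 °C 20 of the 117 members lay at or above the 75th percentile of all genes, and at 42 °C 23 did.

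**Figure D1:**
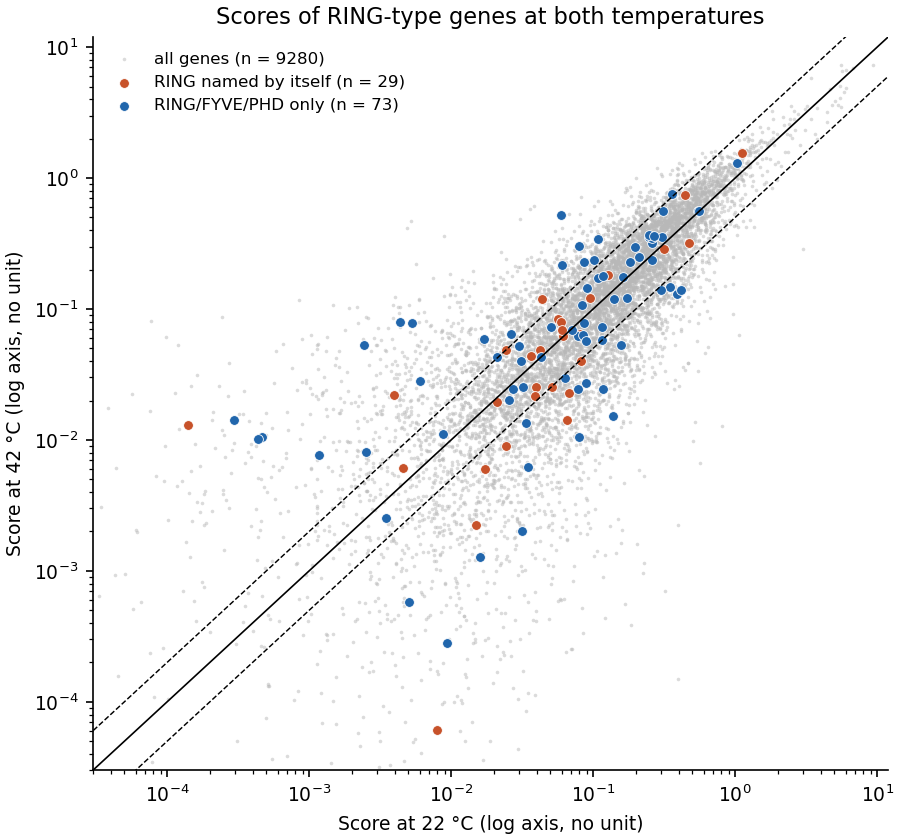
Score at 22 °C (horizontal) against score at 42 °C (vertical), both on log axes and without a unit, for the 9280 genes above 0 at both temperatures (grey) and the 102 RING-type genes among them, coloured by whether a description names RING by itself (29) or only the RING/FYVE/PHD entry (73). The solid line marks equal scores and the dashed lines 2-fold ratios; all 102 members lie within the axes, which start at 3e-05, and 40 of all genes fall below them.

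RING-type genes went both ways at 42 °C, and their median ratio was small, although many single genes lay past 2-fold. Of the 102 genes above 0 at both, 55 (53.9%) had a higher score at 42 °C and 47 a lower one, beside 51.1% higher among all 9280 genes. At least 2-fold higher were 22 genes (21.6%), where 16.1% of all genes were. At least 2-fold lower were 26 genes (25.5%), where 21.6% of all genes were. The other 54 lay within 2-fold, which is 52.9% of the members and 62.3% of all genes. The median log2 ratio of 42 over 22 °C was 0.19, with quartiles of -0.97 and 0.73, and 0.03 over all genes, with quartiles of -0.83 and 0.67. The median over all genes whose mean score reaches 0.2 was 0.27. Centred on it the members' median was -0.08 and that of all genes -0.24, so the direction of the members' median turns with the centring. Taken by single transcript, the medians were 0.016 for members and 0.028 for all. In differences of scores, 14 of the 117 members (11.97%) were at least 0.1 higher at 42 °C and 7 (5.98%) at least 0.1 lower, beside 15.1% and 8.86% of all genes. Across the 102 genes, which are not replicates, Spearman's rho between both temperatures was 0.799, against 0.844 across all genes.

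**Figure D2:**
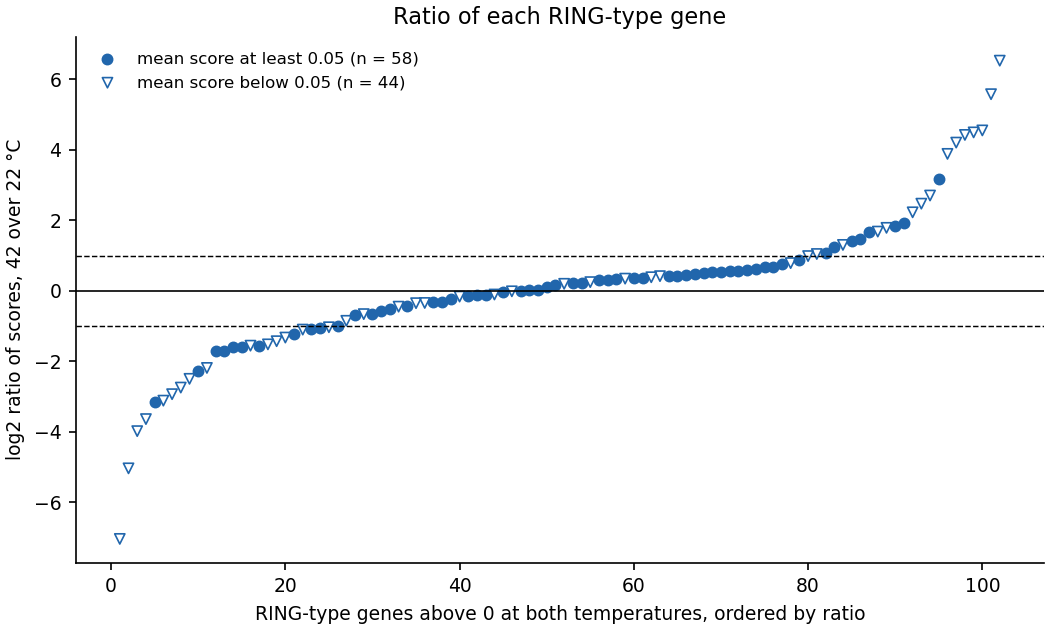
Log2 ratio of the score at 42 °C over that at 22 °C (vertical) for the 102 RING-type genes above 0 at both temperatures, in order of the ratio. Filled circles are the 58 genes whose mean score reaches 0.05 and open triangles the 44 below it; dashed lines mark 2-fold, and triangles make up most of both ends.

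The wide ends of that distribution were mostly genes with very low scores. Of the 22 genes at least 2-fold higher 14 (63.6%) had a mean score below 0.05, beside 42.1% of all genes so called. Of the 26 at least 2-fold lower 15 (57.7%) did, beside 55.2%. At 8-fold or more lay 8 higher members (7.84%, beside 2.63% of all genes) and 6 lower ones (5.88%, beside 4.76%), and 7 and 5 of these had a mean below 0.05. The largest ratios, in genes named after their scores were seen, were those of Os08g0104300 and Os04g0185500. Os08g0104300, described as similar to RING finger protein 13, in human a membrane-bound ubiquitin ligase, had 0.000141 at 22 °C and 0.0130 at 42 °C. Os04g0185500, described by a RING finger at the end of the protein, had 0.00798 and 6.1e-05. Both were near 0 at 1 temperature, and the number of reads behind such scores is unknown.

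Of the 58 members whose mean score reaches 0.05, 8 were at least 2-fold higher (13.8%, beside 13.9% of all such genes) and 11 at least 2-fold lower (18.97%, beside 14.4%). Their median log2 ratio was 0.23, against 0.15 for all 6239 such genes. Of the 25 whose mean reaches 0.2, 3 were at least 2-fold higher (12%, beside 11.6% of all such genes). Another 4 were at least 2-fold lower (16%, beside 7.52%), and 17 of the 25 were higher by any ratio (68.0%, beside 65.7%). All genes above 0 at both were then divided by mean score into 4 bins of equal size. The share of members beyond 2-fold went from 69.0% in the lowest bin (20 of 29) through 45.7% (16 of 35) and 40.0% (8 of 20) to 22.2% in the highest (4 of 18). All genes in those bins gave 60.0%, 43.7%, 29.5% and 17.6%, so ratios were widest at low scores in both.

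**Figure D3:**
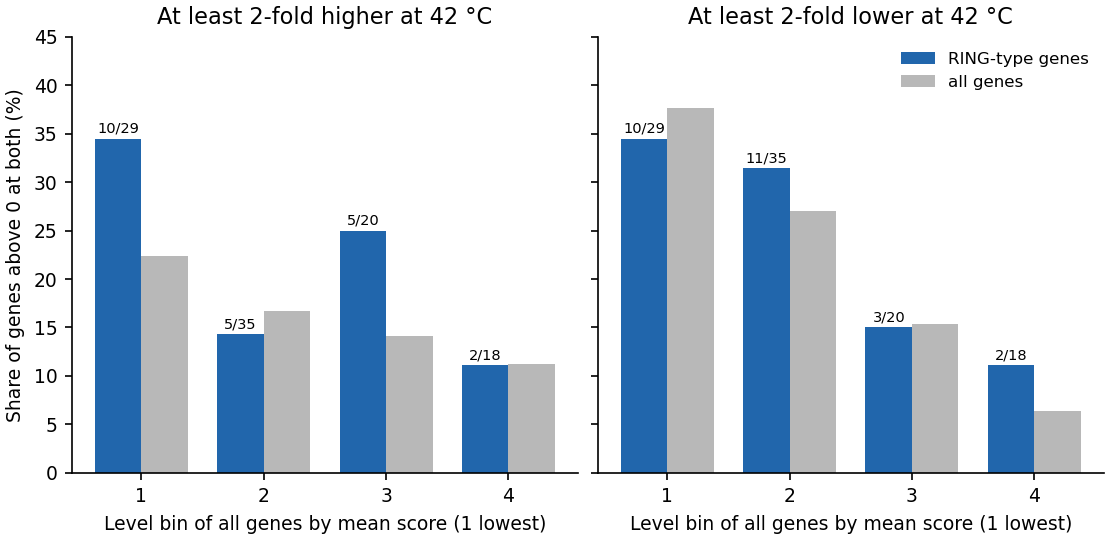
Share of genes (vertical, percent of those above 0 at both temperatures) at least 2-fold higher (left) or lower (right) at 42 °C, in 4 equal bins of all 9280 genes by mean score (horizontal, 1 is the lowest), for RING-type genes (blue, with the count over the number in that bin) and for all genes (grey). In the highest bin 2 of 18 members were higher and 2 of 18 lower.

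The 10 members with the highest mean scores were led by Os11g0542100, described by a RING-type domain, with 1.12 at 22 °C and 1.55 at 42 °C. Os02g0249300, described by the RING/FYVE/PHD entry, had 1.02 and 1.31. These stood at the 98.7th and 98.5th percentiles of all genes at 22 °C and the 99.2nd and 98.8th at 42 °C, and no other member reached 1 at either temperature. Next by mean score was Os01g0822800, similar to the RING-H2 protein ATL3C, with 0.441 and 0.742. Os02g0106600 had 0.358 and 0.754, a ratio of 2.10, the only one of these 10 genes past 2-fold. Os05g0163100 had 0.308 and 0.559.

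A pair of these genes had nearly equal scores at both temperatures. Os11g0582100 had 0.558 at 22 °C and 0.557 at 42 °C, and Os08g0492500 had 0.549 and 0.558. Os08g0548300 had 0.303 and 0.357, and Os09g0376700 had 0.268 and 0.362. The other gene of the 10 with a lower score at 42 °C was Os11g0610600, described by a RING-type domain, with 0.475 and 0.321, a log2 ratio of -0.57.

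The largest ratio upward among members whose mean score reaches 0.05 was that of Os01g0972000, described by the RING/FYVE/PHD entry, with 0.0590 at 22 °C and 0.527 at 42 °C, or 8.93-fold. That took it from the 43.6th to the 91.0th percentile of all genes. Os04g0105100 had 0.0797 and 0.302, or 3.79-fold, Os01g0159300 had 0.0607 and 0.218, or 3.59-fold, and Os05g0110000 had 0.108 and 0.343, or 3.16-fold. All of these are known from the table by the domain entry alone. The gene described as a RING-type ubiquitin ligase, Os06g0154900, had 0.0435 and 0.120, or 2.75-fold. Os03g0351800 had 0.0860 and 0.227, and Os04g0648500 had 0.101 and 0.238. With Os02g0106600 these are all 8 members with such a mean past 2-fold upward, and 7 of the 8 rest on the domain entry. Centred on all genes whose mean reaches 0.2, Os02g0106600 (0.81) and Os04g0648500 (0.97) fall below a log2 ratio of 1.

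The largest ratio downward with such a mean was that of Os01g0887700, with 0.138 at 22 °C and 0.0153 at 42 °C, a log2 ratio of -3.17. Its transcript with the RING/FYVE/PHD entry had 0.219 and 0.0306, and the transcript described as a nucleic acid binding protein had 0.0565 and was listed at 0 at 42 °C. Os09g0386500 had 0.118 and 0.0244, or 4.82-fold lower. Os01g0894600 had 0.0889 and 0.0273, and its transcripts went the same way. Os07g0618600, with its FYVE-described transcript, had 0.0789 and 0.0243. By that description it may be a FYVE protein rather than a RING protein.

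Higher levels at 22 °C were seen among the other genes of that group. Os05g0478000 had 0.418 at 22 °C and 0.139 at 42 °C, or 3.00-fold lower, and Os03g0271600 had 0.390 and 0.129, or 3.02-fold lower. Both stood near the 90th percentile of all genes at 22 °C, at the 89.8th and 88.7th, and at the 63.9th and 62.2nd at 42 °C. Os08g0464400 had 0.347 and 0.147, and Os03g0678400 had 0.156 and 0.0530. These 8 genes all carry the domain entry and no description that names RING by itself. The other 3 of the 11 members past 2-fold downward at such a mean were Os09g0535100, with 0.300 and 0.141, Os08g0539300 and the RING-H2 gene Os06g0233200. Of these, Os09g0535100 and Os06g0233200 were named after their scores were seen.

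**Figure D4:**
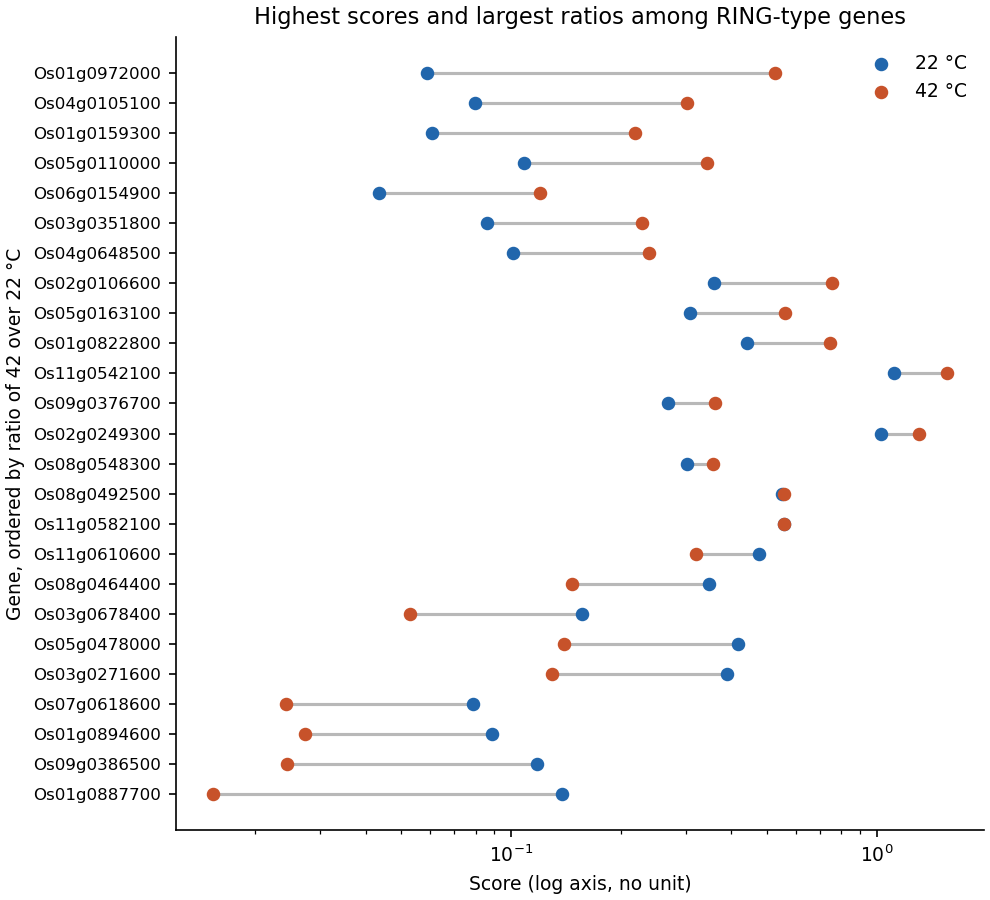
Scores (horizontal, log axis, no unit) at 22 °C (blue) and 42 °C (orange) of the 10 RING-type genes with the highest mean scores and the 8 with the largest ratio in each direction among those with a mean of at least 0.05, ordered by ratio; Os02g0106600 belongs to both sets. Each point is 1 pooled score without a replicate; Os01g0972000 at the top goes from 0.0590 to 0.527 and Os01g0887700 at the bottom from 0.138 to 0.0153.

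The members were also split by wording, a split made after the scores were seen. Among the 29 genes above 0 at both with RING named by itself, 3 (10.3%) were at least 2-fold higher, 8 (27.6%) at least 2-fold lower and 18 within 2-fold, with a median log2 ratio of 0.03 and quartiles of -1.04 and 0.48. Among the 73 where the matching words name only the RING/FYVE/PHD entry, 19 (26.0%) were higher, 18 (24.7%) lower and 36 within. Their median was 0.23, with quartiles of -0.67 and 1.04. Of all genes above 0 at both, 16.1% were at least 2-fold higher and 21.6% lower. With a mean of at least 0.05, 1 of 13 with RING named by itself was higher and 1 lower (7.69% each). Of the 45 others with such a mean, 7 were higher (15.6%) and 10 lower (22.2%). All genes with such a mean gave 13.9% and 14.4%. The sets by wording also differ in level, and shares vary with level. Their median scores at 22 °C were 0.0430 and 0.0793, over members above 0 at 1 or both temperatures. The difference between these sets was not tested, since genes are not replicates.

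RING-H2 fingers differ from other RING fingers in a zinc-binding residue, and the ATL family of plants holds membrane-anchored RING-H2 ligases. Words for kinds of RING protein left 106 of the 117 members unsorted; 8 were sorted by RING-H2 or an ATL name, and 1 each by the words for ubiquitin ligases, copines and a CHY zinc finger. Members first named here and among the named relatives that follow were chosen for these words, outside the rule for named genes, after scores were seen. The 8 members described by RING-H2 or an ATL name had 5 higher and 2 lower scores among the 7 above 0 at both, and 1 of the lower ones was past 2-fold. That gene was Os06g0233200, similar to ATL1R or ATL8, with 0.0825 at 22 °C and 0.0400 at 42 °C. Besides Os01g0822800, the highest of the 8, Os02g0743700 (similar to ATL1Q) had 0.0244 and 0.0483 and Os09g0468800 (similar to ATL5F) 0.0609 and 0.0688. Os02g0557300 (similar to ATL1G) had 0.0399 and 0.0252. Os04g0568900, similar to RING finger protein 6, had 0.0367 and 0.0435, and Os04g0511600 (similar to ATL3G) 0.00456 and 0.00608. Os11g0629300, similar to RHB1a, was listed at 0.000477 and 0. Apart from Os01g0822800 these genes lay below 0.1 at both temperatures.

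Other members are known by a named relative. Neuralized, in Drosophila a ubiquitin ligase of Notch signalling, names a transcript of Os02g0823300 with 0.0414 at 22 °C and 0.0153 at 42 °C, and its RING-described transcript had 0.00729 and 0.00278. Os03g0167500, with 1 transcript similar to RING finger protein 13 (0.00142 and 0) and 1 similar to a ReMembR-H2 protein (0.0405 and 0.0389), did not share the high ratio of Os08g0104300. Another gene similar to RING finger protein 13, Os09g0525400, was listed at 0 at both temperatures. All transcripts of these genes lay below 0.05 at both temperatures.

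Of the 35 members with more than 1 transcript, 18 had all transcripts with a ratio, at least 2 of them, going the same way and 5 had transcripts going opposite ways. The remaining 12 had fewer than 2 transcripts above 0 at both temperatures. How often transcripts go opposite ways over all genes was not counted, so these numbers describe the members alone. Transcripts of 1 gene share exons, and on how reads were divided between them nothing is given in the sources used here. The widest contrast was in Os11g0604600, whose first transcript had 0.0649 at 22 °C and 0.0126 at 42 °C and whose second had 0.0780 and 0.126. Their mean, 0.0715 and 0.0692, shows neither.

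Os06g0608800, of which 1 transcript is described as a copine, a calcium-dependent membrane-binding protein, has 4 transcripts. Their scores were 0.0219 and 0.0312, 0.0743 and 0.0361, 0.0409 and 0.0383 for the copine-described one, and 0.0355 and 0.0652. The mean over them was nearly equal, at 0.0431 and 0.0427. In Os05g0141500 the RING-described transcript had 0.0573 and 0.0784 and the other 0.0276 and 0.0189. The opposite ways in Os04g0679800 (log2 ratios of 0.23 and -0.01) and Os02g0516600 (0.01 and -0.23) were small.

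Among genes at 0 at a single temperature, Os02g0666900, described by a RING-type domain, had by far the highest score, 0 at 22 °C and 0.0940 at 42 °C. Os10g0445400 and Os06g0301000, also listed at 0 at 22 °C, had 0.00923 and 0.00502 at 42 °C. Os04g0675300 and Os10g0142100 had 0.00251 and 0.00101 at 22 °C and were listed at 0 at 42 °C. Of 9 loci of rice RING ligases listed from general knowledge, 6 are in the table. The descriptions of 4 of these do not hold the words of the rule, so they are not members, and the rule misses some RING proteins. The other 2 are members, and both were near 0: Os09g0323100 was listed at 0 and 0.000448, and Os01g0719100 at 9.7e-05 and 0. The latter is similar to a RING and CHY zinc finger protein, in human a ubiquitin ligase. A listing of 0 without a read count does not show that a message was untranslated.

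Around the 2-fold mark, Os03g0302200 (0.0210 and 0.0434, 2.06-fold) and Os02g0106600 (2.10-fold) lay just inside upward and Os02g0743700 (1.98-fold) and Os05g0163100 (1.82-fold) just outside. Downward, Os08g0539300 (0.116 and 0.0577, 2.01-fold) and Os01g0667700 (0.0516 and 0.0252, 2.05-fold) lay just inside. Os02g0580800 (0.0390 and 0.0216, 1.81-fold) and Os04g0530500 (0.116 and 0.0730, 1.60-fold) lay just outside. The same centring sets Os03g0302200 to a log2 ratio of 0.78 and Os02g0580800 to -1.12, across the mark. Without replicates, which of these genes belong on which side of the mark cannot be judged.

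The other steps of the ubiquitin pathway were described by lists of words. RING-type members were left out, and a gene can be in more than 1 list. Shares past 2-fold, higher then lower, stand beside 16.1% and 21.6% of all genes, and most lists are short. Lists differ in score level, and shares and medians vary with it. The median score at 22 °C ran from 0.0312 (BTB proteins) to 0.322 (ubiquitin), the 1 U-box gene aside, and was 0.177 for the proteasome. Over all genes above 0 at 1 or both temperatures it was 0.0869. All genes whose mean reaches 0.2 gave 11.6% and 7.52%, with a median log2 ratio of 0.27. Ubiquitin-activating enzymes (E1), which start the cascade and among which RUB- and SUMO-activating enzymes were taken in, had 5 genes, all within 2-fold, with a median log2 ratio of 0.01. Ubiquitin-conjugating enzymes (E2), the partners of RING ligases, had 9 higher and 9 lower genes of 18 above 0 at both, 5 and 2 of them past 2-fold (27.8% and 11.1%), and a median of -0.11. The RING-type median of 0.19 and the median of 0.03 over all genes stand beside these.

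Cullins and SKP1 form the scaffold of ligases that borrow a small RING protein. Their list, which took in a RING-box protein and 2 genes described by cullin neddylation, had 2 higher and 7 lower of 9 genes, 4 of the lower ones (44.4%) past 2-fold, and a median of -0.65. Of the neddylation genes, Os06g0233400 (0.0271 and 0.000128) is among those 4 and Os07g0631000 (0.295 and 0.189) sets the median; they are named with their scores known. F-box proteins, which select substrates for cullin ligases, had 23 higher and 16 lower of 39, 14 and 9 of them past 2-fold (35.9% and 23.1%), and a median of 0.29. BTB proteins, which include substrate adaptors of other cullin ligases, had 4 higher and 6 lower of 10, 1 and 2 past 2-fold (10% and 20%), and a median of -0.38. A single gene matched U-box, a fold related to RING.

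Deubiquitinases, which remove ubiquitin, had 14 higher and 12 lower of 26, 7 and 6 past 2-fold (26.9% and 23.1%), and a median of 0.12. Ubiquitin and polyubiquitin genes had 10 higher and 5 lower of 15, 1 past 2-fold in each direction (6.67%), and a median of 0.11. SUMO, NEDD8 and RUB are ubiquitin-like modifiers, and the list of their genes took in enzymes too. A SUMO-activating enzyme also stands under E1 and a NEDD8-conjugating enzyme under E2. This list had 5 higher and 5 lower of 10, 1 and 4 of them past 2-fold (10% and 40%), and a median of -0.40. Proteasome genes had 29 higher and 16 lower of 45, 6 and 2 past 2-fold (13.3% and 4.44%), and a median of 0.31. The COP9 signalosome, which removes NEDD8 from cullins, had 3 genes above 0 at both, all within 2-fold, with a median of 0.08. No list was tested against another.

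**Figure D5:**
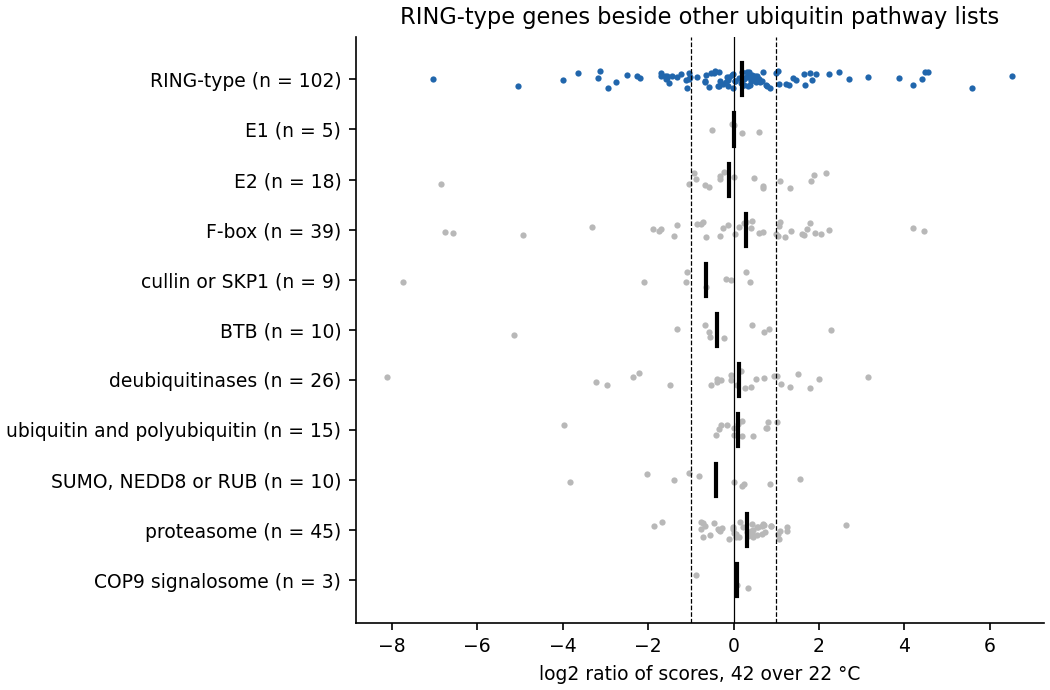
Log2 ratio of the score at 42 °C over that at 22 °C (horizontal) for RING-type genes (blue) and for genes of other ubiquitin pathway lists (grey), 1 point per gene above 0 at both temperatures, with a black bar at each list's median and dashed lines at 2-fold; vertical scatter within a list has no meaning. Medians lie between -0.65 for cullins and SKP1 and 0.31 for the proteasome, and the RING-type median is 0.19. The U-box list, with 1 gene, is not drawn, and lists were not matched for score level.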

How the data were processed

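Per the submitters' processing notes, cutadapt and Bowtie2 were used; their versions and settings are not stated. On the genome build, the annotation and how replicates were combined, nothing is given in the sources used here. Each deposited score belongs to 1 transcript at 22 °C or 42 °C; the deposited difference equals 42 °C minus 22 °C within 1e-05 in all 14122 transcripts. Depth per library is unknown, and the score carries no unit.

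Members were matched by words in 137 transcripts, and all 160 transcripts of the 117 genes were averaged; 23 of these, in 20 genes, have another description. Log2 ratios were computed where both scores are above 0. With 1 pooled score per temperature there is no test. Percentiles are the share of all 10455 genes with a lower score. The members and lists were chosen with earlier results of these data known. Genes named are the 10 highest means, the 8 largest ratios each way with a mean of at least 0.05, up to 5 at 0 at 1 temperature, up to 5 whose transcripts go opposite ways, 9 loci by number where members, and those nearest 2-fold; others are marked. The RefSeq gene table matched 0 of the 117 genes by locus, so its names were not used, and no sequence is shown. Python 3.11.15, numpy 2.4.6, pandas 2.3.3, scipy 1.17.1 and matplotlib 3.10.9 were used.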

Additional observations from a re-analysis of the deposited data

How the results depend on the processing

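No value exists per library, so leaving out replicates was not possible. No paired analysis was possible because the table holds 1 pooled score per temperature. The counts of RING-type genes past 2-fold, 22 upward and 26 downward, were 8 and 11 at a mean score of at least 0.05, and 3 and 4 at 0.2. With 0.1 added to every score they were 3 and 3 of 112 members, or 2.68% each way. Of all 9994 genes so treated, 2.55% were past 2-fold upward and 2.73% downward. At 3-fold they were 16 (15.7%, beside 8.20% of all genes) and 14 (13.7%, beside 13.5%), so the share of higher genes lay farther from that of all genes there than at 1.5-fold, with 30 (29.4%, beside 27.8%) and 30 (29.4%, beside 30.8%). Over genes with RING named by itself, a choice made after seeing the data, they were 3 and 8 of 29. That is 10.3% and 27.6%, beside 16.1% and 21.6% of all genes. Minimum means and that wording use fewer genes, a higher threshold calls fewer, and an added 0.1 draws the ratios of low scores toward 0, all by construction. Under the other settings run both counts stayed within 1.5 times. These were single transcripts, the lowest-numbered transcript, scores read as log2(1 + ratio) and both centrings. Another left out the 3 genes with a FYVE, nucleic acid binding or RNA-binding description, not every gene with a transcript of another description. Added afterwards were matching transcripts alone, 13 genes of related wording added, and genes at 0 at 1 temperature called. With single transcripts the members' median log2 ratio was 0.016, beside 0.028 over all transcripts, so it did not lie above that of all there. Across settings the members' median was highest at 0.32 (all such genes 0.27), over members whose mean reaches 0.2. It was lowest at -0.08 (all genes -0.24), with ratios centred on all genes whose mean reaches 0.2. That centring turned the log2 ratios of Os08g0492500 to -0.24, Os08g0548300 to -0.031, Os04g0679800 to -0.23 and Os05g0141500 to -0.068. It also ended the 2-fold call of Os02g0106600 (0.81), Os04g0648500 (0.97) and Os03g0302200 (0.78) and made one of Os02g0580800 (-1.12). The lowest-numbered transcript alone turned Os06g0608800 to 0.51 and Os02g0516600 to 0.0072, since it leaves out their other transcripts. Among the 36 named genes with a ratio, those already within 2-fold could not drop below it, and 13 of the others did with 0.1 added. The named genes still past 2-fold then were Os01g0972000, Os04g0105100 and Os05g0110000 upward and Os01g0887700, Os03g0271600 and Os05g0478000 downward. The depth behind each score is unknown.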
